A study of Arabidopsis thaliana with 4 samples.

Results

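The genes described here are 10 loci of Arabidopsis thaliana that make up the core ethylene signalling pathway, chosen by locus identifier. They are the receptors ETR1, ERS1, ETR2, ERS2 and EIN4, the kinase CTR1, the membrane protein EIN2, the transcription factor EIN3 and the F-box genes EBF1 and EBF2. All 10 were among the 23695 loci with any read, and 9 of them were among the 17317 loci whose mean reached 1 CPM (the read count relative to the scaled library size) and that were compared.

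Ethylene is a gaseous plant hormone that is bound by receptors in the membrane of the endoplasmic reticulum. Without ethylene the receptors keep the kinase CTR1 active, and CTR1 phosphorylates EIN2 and so holds the pathway off. With ethylene, a part of EIN2 is released to the nucleus, EIN3 accumulates and activates ethylene-responsive genes, while EBF1 and EBF2 direct EIN3 to degradation. In dark-grown seedlings ethylene shortens and thickens the hypocotyl and tightens the apical hook, and auxin is known to induce ethylene synthesis.

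RNA came from hypocotyls, the embryonic stems, of seedlings grown for 4 days in darkness on diluted MS medium. The wild type was Col-0, and arf7 was a T-DNA mutant of the auxin response factor ARF7 whose allele the labels do not name. Each genotype was grown with 500 nM of naphthalene acetic acid (NAA), a synthetic auxin, or without it (mock). Each of the 4 combinations had 1 library, so no comparison has a replicate and no test was made. The labels do not say how many plants went into a library. The size rule used in place of a test called a locus higher or lower where the fold was at least 2 and its 95% counting interval excluded 1.

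Total counts ran from 6997 to 7407 per library, in units of 1000 reads. ARF7 itself was barely measured, at 8 counts without NAA and 8 with it in Col-0, and 3 without and 1 with it in arf7. The Col-0 NAA library stood apart, its counts across loci having a Spearman rho of 0.847 to 0.881 with the other libraries, which had 0.968 to 0.981 with each other. Sums of root markers were also higher in that library. The 9 root hair markers summed to 2.996 CPM (mock) and 147 (NAA) in Col-0 against 2.07 (mock) and 49.0 (NAA) in arf7, with EXPA7 and PRP1 at 0 counts in both mock libraries. With NAA all 7 that were compared met the size rule described above as higher in each genotype. Of all loci compared, 15.2% were higher with NAA in Col-0 and 3.91% in arf7. All of the 7 but PRP3 had less than 1 CPM in both mock libraries, and so reached the mean of 1 CPM through the NAA libraries. Their direction was thus largely set by the filter, and the count carries little weight. The 7 root endodermis markers summed to between 41.8 and 55.2 CPM in the 3 other libraries and to 909 CPM in Col-0 NAA, and the 5 root tip markers to between 5.31 and 19.0 CPM against 52.1 CPM. With NAA in Col-0, 5 of the 6 endodermis markers compared and 3 of the 4 root tip markers compared met the size rule as higher. Among these, CASP5, PLT1 and PLT2 also had less than 1 CPM in both mock libraries and reached the mean of 1 CPM through NAA libraries. Some markers did not follow the sums. In Col-0, MYB36 had 29.3 CPM without NAA and 37.0 with it, ESB1 6 and 2 counts, and the root tip marker WOX5 15 and 13 counts. The 5 shoot apex markers summed to at most 10.6 CPM in any library, with WUS at 0 counts in 3 libraries and CLV3 in 3. STM, the only 1 of them compared, had 33 counts without NAA and 67 with it in Col-0, and 31 and 47 in arf7. It met the size rule as higher with NAA in Col-0, at 2.20-fold (counting interval 1.43 to 3.44), and not in arf7. Of 5 wall growth genes of the elongating hypocotyl, 0 met the size rule in any comparison, and their sum was 5183 CPM in Col-0 NAA and 6141 to 6563 CPM in the others. The part of root or other tissue in the results was not tested, and in such bulk samples fewer cells of a type and less RNA per cell cannot be told apart.

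In Col-0, NAA went with more transcript of 2 receptor genes, of EIN2 and of EBF2. By the size rule 4 of the 9 genes compared were higher and 0 lower, where 15.2% of all loci compared were higher and 13.1% lower. EIN2 was 3.15-fold higher (2.96 to 3.36), ERS2 2.999-fold (2.50 to 3.62), EBF2 2.66-fold (2.50 to 2.83) and ETR2 2.18-fold (1.87 to 2.54), where ranges in parentheses are 95% counting intervals. In arf7 0 of the 9 met the rule in either direction, where 3.91% of all loci were higher and 4.33% lower. At any size, intervals lay above 1 at 8 of 9 genes in Col-0 and below 1 at 0, against 30.5% and 29.8% of all loci. In arf7 they lay above 1 at 5 and below 1 at 2, EBF1 and EBF2, against 19.8% and 19.4% of all loci. Such counts at any size depend on read depth, because more reads give narrower intervals. The genes compared, other than CTR1, averaged 31.7 to 465 CPM, while the loci compared start at 1 CPM. Here and in later paragraphs, the shares of all loci by interval are therefore not matched for depth. The median log2 fold of the 9 was 0.57 in Col-0, against -0.01 over all loci, and 0.21 in arf7, against 0.00.

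The promoters of the 4 genes that met the rule in Col-0 are shown because they moved together in that comparison. Each is the 300 bases before the RefSeq gene start in TAIR10.1, whose nuclear coordinates overlapped those of the files for 23501 of 23505 loci, and each is written 5′ to 3′ on the strand of the gene. Capitals mark ATGTA or its reverse complement, the core of sites bound by EIN3.
ETR2: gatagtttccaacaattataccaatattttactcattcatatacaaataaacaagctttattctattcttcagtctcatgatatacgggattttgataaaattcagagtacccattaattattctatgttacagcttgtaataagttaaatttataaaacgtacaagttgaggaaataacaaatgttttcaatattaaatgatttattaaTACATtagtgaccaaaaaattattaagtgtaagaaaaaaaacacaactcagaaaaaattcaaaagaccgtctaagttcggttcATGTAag
ERS2: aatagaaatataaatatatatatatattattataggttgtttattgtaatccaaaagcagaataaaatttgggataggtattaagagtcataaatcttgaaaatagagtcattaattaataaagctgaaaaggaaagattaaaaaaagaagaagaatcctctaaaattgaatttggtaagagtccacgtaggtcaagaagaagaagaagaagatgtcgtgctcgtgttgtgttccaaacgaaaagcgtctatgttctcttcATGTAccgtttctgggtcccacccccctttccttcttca
EIN2: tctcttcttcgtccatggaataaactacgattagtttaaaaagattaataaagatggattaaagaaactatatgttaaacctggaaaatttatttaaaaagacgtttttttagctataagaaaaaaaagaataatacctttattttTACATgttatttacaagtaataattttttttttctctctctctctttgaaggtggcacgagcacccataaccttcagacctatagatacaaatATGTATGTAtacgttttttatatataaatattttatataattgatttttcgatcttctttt
EBF2: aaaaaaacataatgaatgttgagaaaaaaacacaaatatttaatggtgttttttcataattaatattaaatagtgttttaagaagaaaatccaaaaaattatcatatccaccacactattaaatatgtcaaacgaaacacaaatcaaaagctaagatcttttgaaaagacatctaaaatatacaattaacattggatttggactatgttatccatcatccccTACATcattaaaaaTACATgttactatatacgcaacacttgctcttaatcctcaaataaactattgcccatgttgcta
The windows lie at chr3:8254259-8254558 (forward) for ETR2, chr1:1157814-1158113 (reverse) for ERS2, chr5:787128-787427 (forward) for EIN2 and chr5:8797350-8797649 (reverse) for EBF2, and none of these 4 overlaps another annotated gene. The auxin response elements TGTCTC and TGTCGG, searched on both strands, were in 0 of the 10 windows, against 12.7% and 5.45% of the 17205 windows of the same length at loci compared. ATGTA was in 7 of the 10 windows, among them those of all 4 genes printed, against 59.0% of all windows, and the windows of EIN4, CTR1 and EBF1 held none. ETR2 and EBF2 held 2 copies each, ERS2 1, and EIN2 3, of which 2 overlap each other. RefSeq and the files shared a gene start or end at 40.8% of loci, so a window need not adjoin the model counted. The EIN2 window does, but the EBF2 window begins at 8797350 and the EBF2 model ends at 8797020. Windows of ETR2, ERS2 and EBF1 also stand apart from their models.

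The receptors fall into a pair of subfamilies. ETR1 (AT1G66340, TAIR10 chromosome 1, 24734162 to 24737756) and ERS1 (AT2G40940, chromosome 2, 17084356 to 17087297) form subfamily I, with a conserved histidine kinase domain. ETR1 had 57.7 CPM without NAA and 77.0 with it in Col-0, and 64.9 without and 65.01 with it in arf7. It was the least variable of the 9 genes compared, at 1.33-fold higher with NAA in Col-0 (1.17 to 1.52) and 1.00-fold in arf7 (0.881 to 1.14). ERS1, which lacks the receiver domain of ETR1, had 210.3 CPM (mock) and 276 (NAA) in Col-0 against 166 (mock) and 188 (NAA) in arf7. Its NAA response was 1.31-fold in Col-0 (1.23 to 1.41) and 1.13-fold in arf7 (1.05 to 1.23), both short of the size rule.

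ETR2 (AT3G23150, chromosome 3, 8254663 to 8257735) and ERS2 (AT1G04310, chromosome 1, 1154764 to 1157711) belong to subfamily II, whose kinase domains have lost some conserved motifs. Like ERS1, both genes are known to be induced by ethylene. ETR2 had 35.5 CPM without NAA and 77.5 with it in Col-0, and 24.8 without and 33.0 with it in arf7. ERS2 had 21.7 CPM (mock) and 64.9 (NAA) in Col-0 against 15.7 (mock) and 27.0 (NAA) in arf7, so for both genes Col-0 NAA was the highest library and arf7 mock the lowest. With NAA in arf7, ERS2 was 1.71-fold higher (1.36 to 2.18) and ETR2 1.33-fold (1.09 to 1.62). ERS2 had the widest range of the 10 genes across the libraries, 2.04 on the log2 CPM scale.

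EIN4 (AT3G04580, chromosome 3, 1235283 to 1238493), the remaining subfamily II receptor, was not measured well enough to compare. It is listed as 2 transcript models, and reads covered at most 5.90% of either. It held 6 counts without NAA and 5 with it in Col-0, and 6 without and 9 with it in arf7, and its mean fell below 1 CPM. Its count can therefore not be read as its level.

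**Figure D1:**
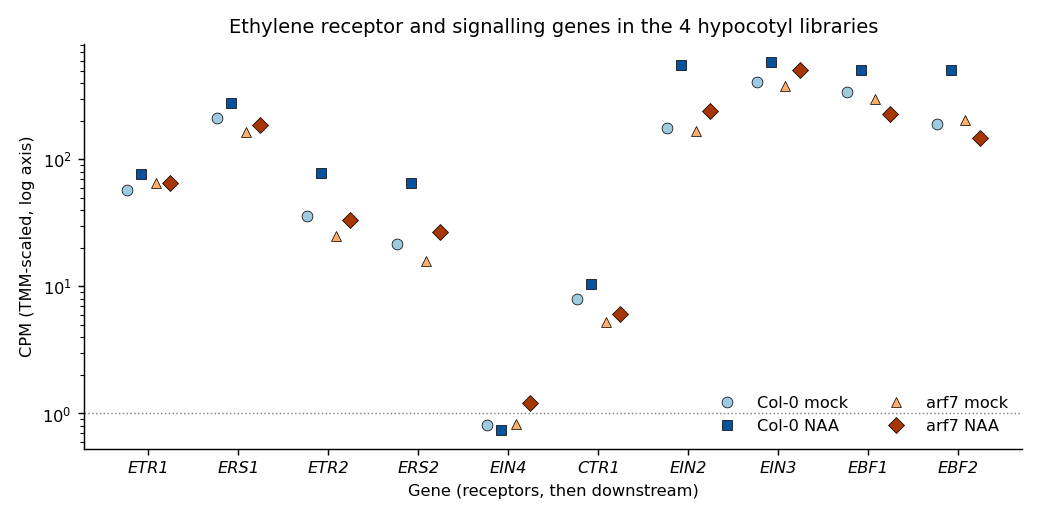
Level of each of the 10 genes (horizontal axis) in each library, in TMM-scaled CPM on a log axis, with the dotted line at 1 CPM; each point is 1 library. All 9 genes compared lie highest in Col-0 NAA, among them ETR2, ERS2, EIN2 and EBF2 at 77.5, 64.9, 556 and 507 CPM, and EIN4 lies near 1 CPM in all 4 libraries.

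Levels can be compared between genes only per length, for which the authors' RPKM (reads per kilobase of model, relative to library size) was used, over the 8 genes with 1 listed model. Among the receptors ERS1 was highest in every library, at 88.2 RPKM (mock) and 111 (NAA) in Col-0 against 72.5 (mock) and 81.7 (NAA) in arf7. In Col-0 mock ETR1 followed at 20.6 RPKM, ETR2 at 12.2 and ERS2 at 8.69, and the counting interval of each step excluded a ratio of 1. In Col-0 NAA the 3 were at 26.3, 25.3 and 24.9 RPKM, and neighbours in that order did not differ beyond counting error. ETR2 and ERS2 together made up 16.1% of the RPKM summed over these 4 receptors in Col-0 without NAA and 26.8% with it, and 13.8% and 17.9% in arf7.

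These shares follow from ratios within a library, which do not depend on how libraries are scaled. The ratio of ERS2 to ETR1 reads per length was 0.421 (0.349 to 0.507) without NAA and 0.947 (0.832 to 1.08) with it in Col-0, and 0.272 (0.220 to 0.335) without and 0.466 (0.393 to 0.551) with it in arf7. It was higher with NAA in each genotype, and the intervals with and without NAA did not overlap in either. The ratio of ETR2 to ETR1 was 0.590 (0.504 to 0.690) in mock and 0.964 (0.853 to 1.09) with NAA in Col-0, and 0.367 (0.308 to 0.437) in mock and 0.487 (0.416 to 0.570) with NAA in arf7. Its intervals overlapped between the arf7 libraries but not between the Col-0 libraries.

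**Figure D2:**
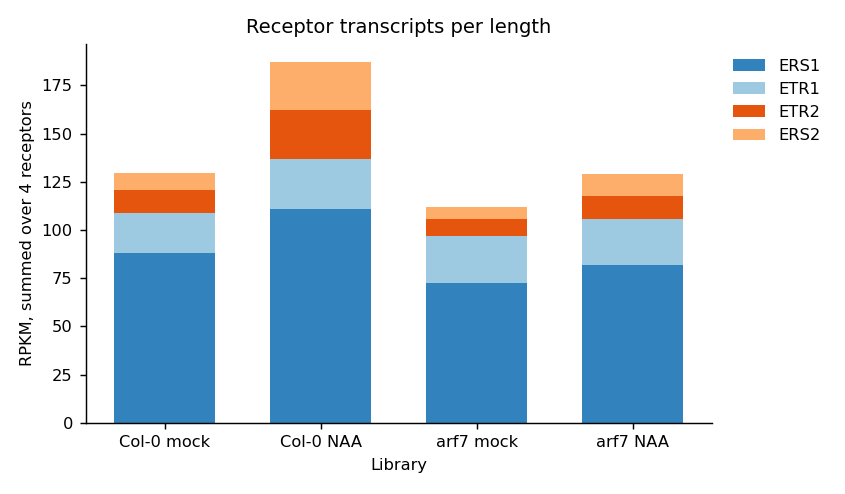
RPKM of ERS1, ETR1, ETR2 and ERS2 (stacked bars, vertical axis) in each library (horizontal axis), with no error shown. The stack is 187 RPKM in Col-0 NAA and 112 to 130 in the others, and ERS1 is the largest segment in all 4.

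CTR1 (AT5G03730, chromosome 5, 974498 to 979849), the kinase that holds EIN2 inactive, is also listed as 2 models, and reads covered at most 7.38% of either. It held 58 counts without NAA and 71 with it in Col-0, and 38 without and 45 with it in arf7. The NAA folds of 1.32 in Col-0 (0.922 to 1.91) and 1.16 in arf7 (0.735 to 1.83) had intervals that include 1, so a difference was not detectable with these few counts.

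EIN2 (AT5G03280, chromosome 5, 787428 to 793356), the protein that carries the signal from the endoplasmic reticulum to the nucleus, was covered by reads over 97.5% to 99.5% of its model. It had 177 CPM (mock) and 556 (NAA) in Col-0 against 166 (mock) and 241 (NAA) in arf7. The mock libraries did not differ beyond counting error (arf7 against Col-0 0.941-fold, 0.869 to 1.02), and both NAA libraries were above both mock libraries. The NAA response was 3.15-fold in Col-0 and 1.45-fold in arf7 (1.35 to 1.56). Per length EIN2 stood well below ERS1 in Col-0 mock, at a ratio of 0.413 (0.383 to 0.445), and level with it in Col-0 NAA, at 0.990 (0.936 to 1.05).

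EIN3 (AT3G20770, chromosome 3, 7260432 to 7263352), the transcription factor at the end of the pathway, had the highest RPKM of the 8 genes in each library. It had 405 CPM without NAA and 580.2 with it in Col-0, and 375 without and 508 with it in arf7. Its NAA response was 1.43-fold in Col-0 (1.37 to 1.504) and 1.35-fold in arf7 (1.29 to 1.42). The difference of the log2 responses, arf7 minus Col-0, was -0.08, with an interval of -0.18 to 0.02.

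EBF1 (AT2G25490, chromosome 2, 10847375 to 10850532) and EBF2 (AT5G25350, chromosome 5, 8794252 to 8797020) encode the F-box proteins that mark EIN3 for degradation, and EBF2 is a known target of EIN3. EBF1 had 339.9 CPM (mock) and 505 (NAA) in Col-0 against 301 (mock) and 227 (NAA) in arf7. EBF2 had 191 CPM without NAA and 507 with it in Col-0, and 203 without and 148 with it in arf7. For both genes Col-0 NAA was the highest library and arf7 NAA the lowest. EBF1 was 1.48-fold higher with NAA in Col-0 (1.41 to 1.56) and 1.33-fold lower in arf7 (1.24 to 1.42). EBF2 was 2.66-fold higher in Col-0 and 1.37-fold lower in arf7 (1.26 to 1.48). Counting intervals that exclude 1 in opposite directions were found at these 2 of the 9 genes, and at 8.59% of all loci compared.

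**Figure D3:**
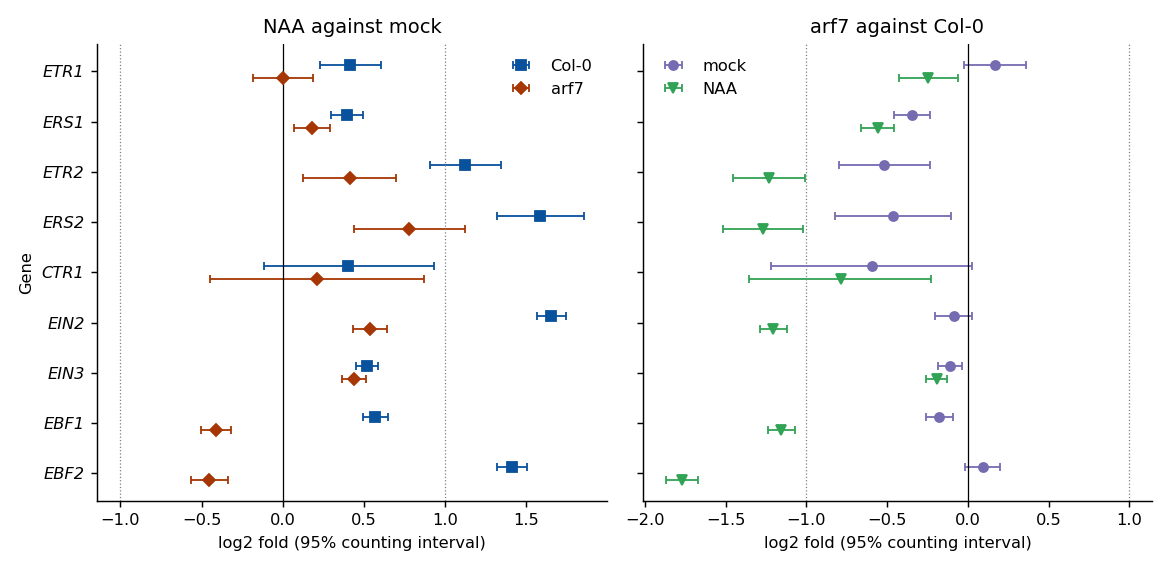
Log2 fold with its 95% counting interval (horizontal axis) for the 9 genes compared (vertical axis), with NAA against mock in each genotype on the left and arf7 against Col-0 in each treatment on the right; dotted lines mark a fold of 2. On the left EBF1 and EBF2 lie above 0 in Col-0 and below 0 in arf7, and on the right EBF2 with NAA lies furthest below 0, at -1.77.

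Within a library, the F-box transcripts differed in their level relative to EIN3. The ratio of EBF2 to EIN3 reads per length was 0.437 (0.410 to 0.466) in mock and 0.811 (0.774 to 0.849) with NAA in Col-0, and 0.502 (0.471 to 0.535) in mock and 0.271 (0.253 to 0.290) with NAA in arf7. It was thus higher with NAA than in mock in Col-0 and lower with NAA in arf7, and no interval overlapped another. The ratio of EBF1 to EIN3 was 0.386 in arf7 NAA (0.365 to 0.409), below the others. These overlapped one another, at 0.727 (0.689 to 0.767) in mock and 0.753 (0.719 to 0.789) with NAA in Col-0, and 0.695 (0.657 to 0.736) in arf7 mock. EBF2 stood below EBF1 in 3 libraries and above it in Col-0 NAA, at a ratio of 1.08 (1.03 to 1.13).

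**Figure D4:**
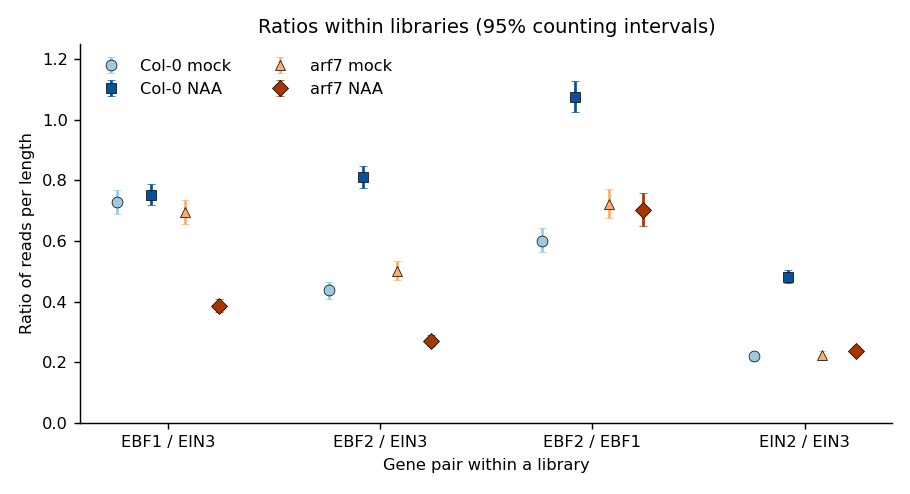
Ratio of reads per length of the pairs EBF1 to EIN3, EBF2 to EIN3, EBF2 to EBF1 and EIN2 to EIN3 (horizontal axis) within each library, with 95% counting intervals. Both ratios to EIN3 of the F-box genes are lowest in arf7 NAA, at 0.386 and 0.271, and EIN2 to EIN3 is 0.481 in Col-0 NAA against 0.219 to 0.239 in the others.

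Without NAA no gene compared differed between the genotypes by the size rule. Of the 9 genes 0 met the size rule in arf7 mock against Col-0 mock, where 2.33% of all loci were higher and 2.30% lower. The median log2 fold of the 9 was -0.18, against 0.01 over all loci. Intervals excluded 1 at 5 genes, all lower in arf7 mock, a direction that 14.8% of all loci took. ETR2 was 1.43-fold lower (1.18 to 1.74), ERS2 1.38-fold lower (1.08 to 1.77) and ERS1 1.27-fold lower (1.18 to 1.37), while EBF1 at 1.13-fold (1.066 to 1.197) and EIN3 at 1.08-fold (1.02 to 1.14) differed less. ETR1, EIN2, EBF2 and CTR1 had intervals that include 1. Under scaling by library totals alone, intervals lay below 1 at 4 genes, without EIN3, and above 1 at 2, ETR1 and EBF2.

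With NAA, arf7 stood below Col-0 at EBF2, ERS2, ETR2, EIN2 and EBF1. These 5 of 9 met the size rule as lower and 0 as higher, where 14.1% of all loci were lower and 10.8% higher. EBF2 was 3.41-fold lower (3.19 to 3.66), ERS2 2.41-fold (2.03 to 2.86), ETR2 2.34-fold (2.01 to 2.74), EIN2 2.30-fold (2.18 to 2.44) and EBF1 2.23-fold (2.10 to 2.36). The median log2 fold of the 9 was -1.15, against 0.01 over all loci. Intervals lay below 1 at all 9 and above 1 at 0, against 29.1% and 28.0% of all loci, but scaling by library totals alone left 8, without ETR1. That scaling moved the median of all loci in this comparison to 0.13, and EIN3 then stood at -0.07 in place of -0.19. The comparison shares the Col-0 NAA library with the Col-0 response, so the values of one are not independent of the other.

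**Figure D5:**
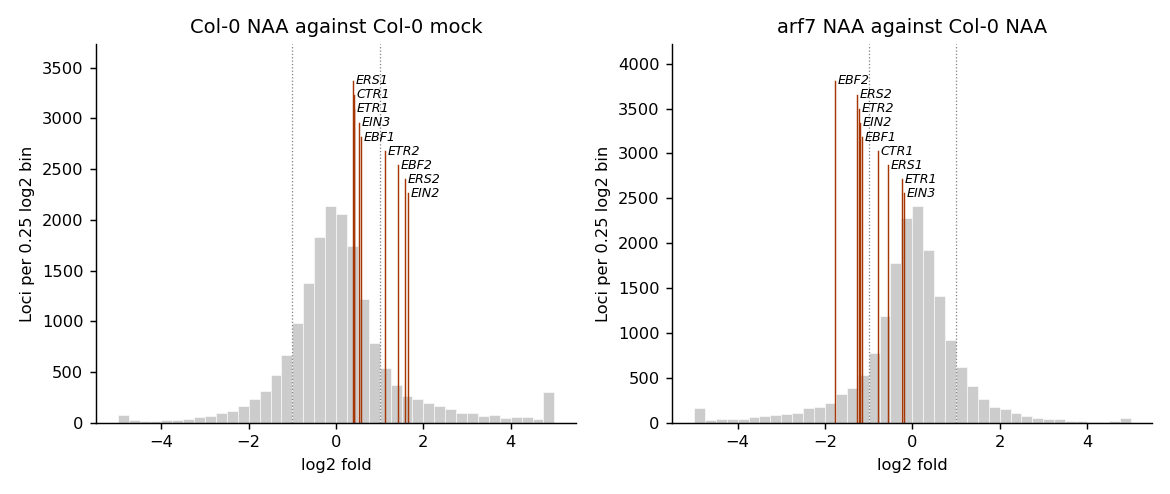
Number of loci compared (vertical axis) by log2 fold (horizontal axis, bins of 0.25, values past 5 in the end bins) for NAA against mock in Col-0 and for arf7 against Col-0 with NAA, which share a library; lines mark the 9 genes and dotted lines a fold of 2. The 9 genes lie from 0.39 to 1.65 on the left and from -1.77 to -0.19 on the right.

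The difference of the NAA responses, arf7 minus Col-0 on the log2 scale, was at most -1 with an interval below 0 at 2 of the 9 genes, against 13.2% of all loci, and at least 1 with an interval above 0 at 0, against 11.4%. It was -1.86 for EBF2 (-2.01 to -1.72) and -1.12 for EIN2 (-1.26 to -0.98). EBF1 lay just short at -0.98 (-1.10 to -0.86), followed by ERS2 at -0.81 (-1.23 to -0.38) and ETR2 at -0.71 (-1.06 to -0.36). Over all sizes, intervals lay below 0 at 7 of 9 genes, against 24.4% of all loci, and included 0 at CTR1 and EIN3. The median difference of the 9 was -0.71, against 0.02 over all loci. This difference compares single libraries and has no replicate check.

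The authors' deposited tables, which list models with an absolute log2 ratio of RPKM of at least 1 past their own test, held 4 of the 10 genes for NAA in Col-0 and 5 for arf7 against Col-0 with NAA, and 0 for each of the other comparisons. Over all loci they held 2240 higher and 1941 lower for NAA in Col-0, and 1683 higher and 1930 lower for arf7 against Col-0 with NAA. The tables with 0 of the genes were shorter, at 333 higher and 484 lower for NAA in arf7, and 198 higher and 146 lower for arf7 mock against Col-0 mock. The log2 ratios in the authors' deposited table for the Col-0 response were 1.59 for EIN2, 1.52 for ERS2, 1.34 for EBF2 and 1.06 for ETR2. For arf7 against Col-0 with NAA the authors' deposited table gives -1.65 for EBF2, -1.15 for ERS2, -1.11 for ETR2, -1.08 for EIN2 and -1.03 for EBF1. These are the same genes that met the size rule. Both lists come from the same 4 libraries with a cut at a fold of 2, so the match is not an independent check.

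Of 18 other genes of the pathway, 16 were compared. With NAA in Col-0, 3 were higher and 1 lower (median log2 fold 0.58), and in arf7 1 was higher and 4 lower (median -0.17). In arf7 mock against Col-0 mock 3 were lower, and with NAA 7 were lower and 0 higher (median -0.62). The shares of all loci called in each comparison, given above, are the background of these counts too.

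Among genes that act on the receptors, ARGOS (AT3G59900), which reduces ethylene sensitivity at the receptors, had 22.7 CPM without NAA and 73.2 with it in Col-0, and 10.8 without and 3.78 with it in arf7. It was 3.22-fold higher with NAA in Col-0 (2.69 to 3.86) and 2.85-fold lower in arf7 (1.83 to 4.56). Its relative ARL (AT2G44080) had 65.2 CPM (mock) and 115 (NAA) in Col-0 against 27.7 (mock) and 28.6 (NAA) in arf7. ARL was 2.35-fold lower in arf7 than in Col-0 without NAA (1.99 to 2.79) and 4.01-fold lower with it (3.44 to 4.69). RAN1, the copper transporter that supplies the receptors, met the rule in no comparison and was 1.495-fold higher with NAA in Col-0 (1.41 to 1.58). EIL1 (AT2G27050), the closest relative of EIN3, did not meet the rule either, at 1.90-fold with NAA in Col-0 (1.74 to 2.09) and 1.56-fold in arf7 (1.40 to 1.74). EIN5, an exoribonuclease that limits EBF1 and EBF2 transcripts, was 1.49-fold higher with NAA in Col-0 (1.37 to 1.63) and 1.16-fold in arf7 (1.057 to 1.269).

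Of the response genes, HLS1 (AT4G37580), a regulator of the apical hook, had 15 counts without NAA and 199 with it in Col-0, and 14 without and 4 with it in arf7. It was 14.3-fold higher with NAA in Col-0 (8.49 to 26.1) and 3.58-fold lower in arf7 (1.13 to 14.9). EDF1, an AP2 and B3 domain factor induced by ethylene, had 80.4 CPM (mock) and 162 (NAA) in Col-0 against 76.6 (mock) and 46.1 (NAA) in arf7. It was 2.02-fold higher in Col-0 with NAA (1.82 to 2.23) and, short of the rule, 1.66-fold lower in arf7 (1.45 to 1.91). EDF2, of the same family, met the rule in 3 comparisons on few reads, at 22 and 9 counts in Col-0 and 6 and 22 in arf7, each without and with NAA. EDF3 was 2.05-fold lower in arf7 than in Col-0 with NAA (1.69 to 2.48), EDF1 3.51-fold (3.11 to 3.98) and HLS1 54.3-fold (20.9 to 201). EDF3 was 2.70-fold lower with NAA in arf7 (2.25 to 3.24) and 1.19-fold lower in Col-0 (1.03 to 1.39). EDF4 met the rule in no comparison, while ERF1, an ethylene response factor activated by EIN3, had 31 counts in each Col-0 library and, in arf7, 39 without NAA and 13 with it. ERF1 was thus 3.07-fold lower with NAA in arf7 (1.60 to 6.27) and 2.60-fold lower than in Col-0 with NAA (1.32 to 5.42).

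ERS2, as the gene with the widest range, was compared with 4932 loci that carry a symbol and average 10 CPM or more. The nearest by Euclidean distance between centred log2 CPM values over the 4 libraries were PCK1, a phosphoenolpyruvate carboxykinase, at 0.16, the small GTPases RABB1C at 0.20 and RABG3B at 0.21, the expansin EXPA5 at 0.21 and IQD17 at 0.22. PCK1 had 627 CPM without NAA and 1785 with it in Col-0, and 497 without and 841 with it in arf7, the same order of libraries as ERS2. With 4 libraries, such nearness describes only these values.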

How the data were processed

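The authors deposited, per the file headers, a count of uniquely assigned reads for each transcript model in each of the 4 libraries, the percent of the model covered and an RPKM value. Models with no read are not listed. Per the submitters' processing notes the reads were placed on TAIR10. The aligner and counter are not given in the sources used here. RPKM recomputed from count, length and total matched the deposited value within 0.1% for 95856 of 95856 values. The median share covered was 70.7% for models that are the only one listed for their locus and 5.37% for the others, so reads in shared sequence may not have been counted. The authors also deposited 4 tables of log2 ratios with a p-value and FDR, whose test is not given in the sources used here. Their 16 columns with values per sample were left out.

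Counts were summed per locus and scaled by TMM (edgeR 4.0.16, R 4.3.3). Loci averaging 1 CPM or more over the libraries were compared. This filter and the one at 10 CPM used library totals without TMM. A fold is the ratio of scaled counts, with an exact conditional binomial (Clopper-Pearson) 95% interval, and log2 folds add 0.5 to each count. Where a count of 0 met a count above 0, the 0 was set to 3 for the fold but not for the interval. Among the root hair markers, PRP1 in each genotype and EXPA18 and RHD6 in arf7 were called in this way. The interval of a difference of log2 responses is a 95% Wald interval on the counts. Intervals cover counting error only, not the spread between plants. Each group is 1 library, so the size rule stands in place of a test and no p-value was computed. The size rule was tested on simulated data that held counting error but no spread between plants. Alternatives were DESeq2 1.42.0 size factors, library totals, other filters, other uses of transcript models, a fold of 1.5 and 1 added to each count.

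The 10 members, the pathway and marker lists and the rules were chosen with earlier results of these data known. All members are described. Other pathway genes are named from a list of 18, mainly where they met the size rule, with RAN1, EIL1, EIN5 and EDF4 added for their roles after their values were seen. Root hair, endodermis, root tip, shoot apex and wall growth markers came from lists too. No label states strand-specific counting, which leaves genes with an overlapping or antisense partner uncertain.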

Additional observations from a re-analysis of the deposited data

Results flagged for a closer look

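EBF1 and EBF2 stood out because their NAA responses went in opposite directions in the genotypes. With NAA the scaled EBF1 count was 1.48 times that of mock in Col-0 and 0.753 times in arf7. The scaled EBF2 count was 2.66 times that of mock in Col-0 and 0.731 times in arf7. Each response is a ratio of single libraries, and the difference between genotypes was not tested against the spread between plants.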

How the results depend on the processing

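No paired analysis was possible because each group is 1 library. Of 302 single-gene log2 folds recomputed under an alternative, 292 stayed within the counting interval of the reported value. The other 10 were those of ERS1, EIN2, EIN3, EBF1 and EBF2 for arf7 NAA against Col-0 NAA under library totals and under the authors' RPKM, all of unchanged sign, as with EBF2 at -1.65 under each. ETR1 in arf7 with NAA, at 0.00, took either sign. The counts of the 10 genes higher or lower in each comparison held under every other alternative, except that with a fold of 1.5 the count was 1 higher in arf7 with NAA (ERS2) and 6 lower for arf7 NAA against Col-0 NAA. The count of genes whose response in arf7 differed from that in Col-0 by the rule was 5 with a fold of 1.5 and 3 with DESeq2 size factors. The shares of all loci given above are for a fold of 2 under TMM scaling. They are not the background of these changed counts, which are given only to show the dependence on settings.

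With a mean of at least 5 CPM, fewer loci were tested and 1596 were higher in Col-0 with NAA, 367 higher and 440 lower in arf7 with NAA, 192 higher and 204 lower in arf7 mock against Col-0 mock, and 1500 lower in arf7 NAA against Col-0 NAA. With a fold of 1.5 the counts of loci were 3624 lower in Col-0 with NAA, 1458 higher and 1610 lower in arf7 with NAA, 892 higher and 930 lower in arf7 mock against Col-0 mock, and 3185 higher in arf7 NAA against Col-0 NAA. The median log2 fold of the genes was 0.84 in Col-0 with NAA over loci with 1 listed model, which leaves out CTR1. With no filter, which adds EIN4, it was 0.31 in arf7 with NAA and -0.97 for arf7 NAA against Col-0 NAA, and with library totals -1.03 for the latter. Without the Col-0 NAA library in scaling and filter, an alternative chosen after seeing the data, 0 genes met the rule in either comparison that does not use it. CTR1 and EIN4 rest on few counts, from reads over at most 7.38% and 5.90% of a listed model.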
